A study of Mus musculus with 6 samples.

Results

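The 35 genes described here carry glucose to pyruvate and lactate, control the entry of pyruvate into mitochondria, or belong to the response to low oxygen. They were taken by symbol from a transcript table of 29510 gene symbols, and the values of each gene's transcripts were summed. The study compared mouse primary chondrocytes, the cells that build cartilage, cultured without being induced to differentiate. The cKO group (3 libraries) had the genotype Nf2f/f;Prx1-CRE, and the control group (3 libraries) had the genotype Nf2f/f, so both carried floxed Nf2 alleles and only the cKO titles name a Cre. Prx1-Cre is active in limb bud mesenchyme and its descendants. The age of the mice, the cartilage taken and any pooling are not stated in the labels. No label ties the replicates to different animals or cultures. The p-values therefore measure the spread among these samples, which may be partly technical. The comparison asks how the cKO genotype, made to delete Nf2, which encodes the tumour suppressor merlin, differs from control.

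Glycolysis splits glucose into pyruvate in the cytosol and yields ATP without oxygen. Pyruvate is then reduced to lactate by lactate dehydrogenase or oxidised in mitochondria by the pyruvate dehydrogenase complex, which pyruvate dehydrogenase kinases switch off. Growth plate cartilage has no blood vessels, and its chondrocytes rely on glycolysis and on hypoxia-inducible factor 1 (HIF-1), whose alpha subunit is marked for destruction by oxygen-dependent prolyl hydroxylases. HIF-1 binds a short core sequence, ACGTG or GCGTG, and switches on many glycolytic genes.

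The levels are FPKM, fragments scaled by transcript length and library total, as the authors deposited them. Of the 35 genes, 34 averaged 0.5 FPKM or more and entered limma's test among 14080 genes on log2(FPKM + 0.5). Log2 changes are cKO minus control on that scale, on which low genes change less than their FPKM do. The 6 library sums ran from 394508 to 420186 FPKM, and depth is unknown because whole reads could not be recovered from the values. Xist, the RNA of the inactive X in females, was 0.525 FPKM or less in 1 library of each group and 41.6 FPKM or more in the other 2, so the libraries of a group were not all repeats of 1 animal. Summed over all transcripts, Nf2 had 17.5, 15.6 and 18.1 FPKM in cKO 1 to 3, against 16.7, 16.6 and 14.1 FPKM in control 1 to 3. The groups overlapped (log2 change 0.11, SE 0.091, limma adjusted p = 0.463), and this sum does not check a deletion of part of the gene. Chondrocyte markers were present in all libraries. All 13 of them were lower in cKO by limma's test, with a median log2 change of -1.65 and summed levels of 2400 to 2990 FPKM in cKO, against 5355 to 6609 FPKM in control. In bulk RNA, fewer cells of a type and less RNA per cell cannot be told apart. Macrophage and osteoclast markers summed to 55.0 to 75.5 FPKM in cKO and 87.1 to 117 FPKM in control, and 2 of the 4 tested fell. Of 7 tested fibroblast and perichondrium markers 3 fell (Dcn, Lum and Col3a1), and the list summed to 1753, 994 and 1391 FPKM in cKO 1 to 3, against 1639, 1621 and 1718 FPKM in control 1 to 3. None of 5 tested osteoblast markers passed limma (2 higher and 0 lower at an unadjusted p under 0.05), but their list summed to 197, 57.7 and 243 FPKM in cKO 1 to 3, against 67.6, 45.8 and 64.4 FPKM in control 1 to 3. Endothelial, erythroid, neural and epidermal lists had no gene above the filter. The part of these markers in the changes given below was not tested.

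Of the 34 tested genes, 6 rose in cKO (17.6%), against 7.6% of all genes tested that were called higher. They were Eno3, Tpi1, Pdha1, Pdk4, Eno1 and Aldoa. Aldoa, Tpi1, Eno1 and Eno3 encode enzymes of glycolysis, and Pdha1 and Pdk4 act on the entry of pyruvate into mitochondria. No gene of the set fell, against 4.57% of all genes called lower, while at an unadjusted p under 0.05 limma counted 5 lower and 10 higher (10.1% and 19.5% of all genes tested). In 13 of the 34 genes every cKO library lay above every control library (38.2%, against 22.8% of all genes), and in 7 every cKO library lay below (20.6%, against 12.3%). The median log2 change of the 34 was 0.13 (range -0.36 to 1.18), against 0.05 for all genes tested (quartiles -0.10 and 0.19). The calls were thin. Leaving out each library in turn gave between 1 and 5 called higher, a fit without the filter on low values gave 1, and a fit without the mean-variance trend gave 2.

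**Figure D1:**
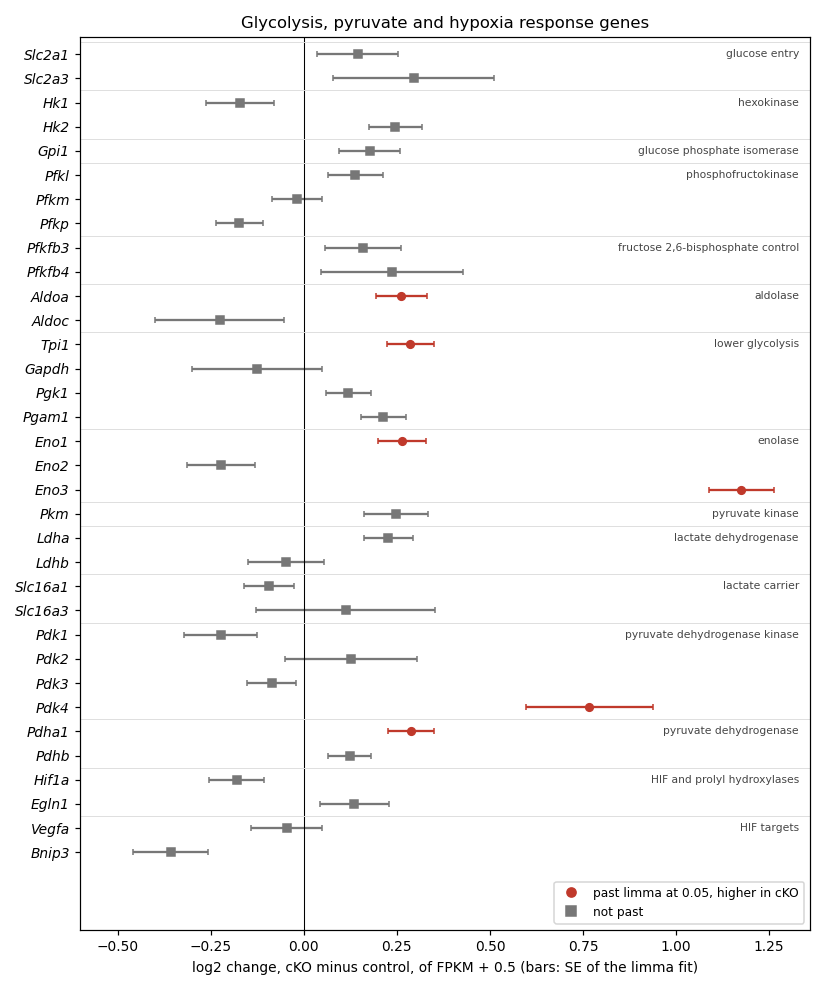
Log2 change, cKO minus control, of each tested gene on the log2(FPKM + 0.5) scale, ordered by role, with bars for the standard error of limma's fit. Eno3 is the highest at 1.18 and Bnip3 is the lowest at -0.36.

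The promoters of 4 genes are shown as windows that were searched for a HIF core. Sequence outside these windows was not searched. Eno3 had the strongest change, Tpi1 is a called gene with no core in its window, Ldha is a textbook HIF-1 target, and Bnip3 had the most negative change. Each is RefSeq's (GRCm38.p6), 250 bases before to 50 after the annotated start, 5′ to 3′ on the gene's strand. The Eno3 window is chr11:70656926-70657225 on the plus strand, the Tpi1 window is chr6:124814109-124814408 on the minus strand, the Ldha window is chr7:46845554-46845853 on the plus strand, and the Bnip3 window is chr7:138909457-138909756 on the minus strand. Capitals mark ACGTG or GCGTG on either strand, where CACGTG holds ACGTG on both strands.
Eno3: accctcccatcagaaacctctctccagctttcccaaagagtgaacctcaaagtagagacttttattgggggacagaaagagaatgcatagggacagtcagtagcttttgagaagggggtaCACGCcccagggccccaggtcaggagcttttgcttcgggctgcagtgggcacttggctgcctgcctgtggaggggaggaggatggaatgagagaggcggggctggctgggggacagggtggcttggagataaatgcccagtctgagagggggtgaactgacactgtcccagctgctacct
Tpi1: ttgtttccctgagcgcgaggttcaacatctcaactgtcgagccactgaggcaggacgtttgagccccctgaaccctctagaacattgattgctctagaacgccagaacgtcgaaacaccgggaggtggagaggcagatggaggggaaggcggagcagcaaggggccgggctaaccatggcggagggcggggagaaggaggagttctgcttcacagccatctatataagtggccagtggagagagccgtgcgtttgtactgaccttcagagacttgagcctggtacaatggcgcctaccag
Ldha: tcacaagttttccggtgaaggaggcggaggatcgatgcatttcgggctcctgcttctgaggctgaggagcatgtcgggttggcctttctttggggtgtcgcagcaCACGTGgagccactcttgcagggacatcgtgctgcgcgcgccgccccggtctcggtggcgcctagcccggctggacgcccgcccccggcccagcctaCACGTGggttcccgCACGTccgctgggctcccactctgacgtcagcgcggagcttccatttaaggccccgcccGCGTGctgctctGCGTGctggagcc
Bnip3: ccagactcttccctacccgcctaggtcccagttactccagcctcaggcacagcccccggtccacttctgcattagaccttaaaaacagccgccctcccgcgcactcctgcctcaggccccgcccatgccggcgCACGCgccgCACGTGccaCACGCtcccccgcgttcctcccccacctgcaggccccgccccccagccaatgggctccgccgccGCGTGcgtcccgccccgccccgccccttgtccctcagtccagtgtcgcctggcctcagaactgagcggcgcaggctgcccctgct

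RefSeq's table held promoters for 34 of the 35 genes, 49 windows in all. ACGTG or GCGTG stood in 39 of the 49 windows (79.6%), against 43.8% of all 32851 promoters. The set holds known HIF targets by choice, and some windows of the same gene overlap, as for Eno1, so these shares test nothing. Counted by gene, 31 of the 34 had it in at least 1 window (91.2%), against 46.7% of 27025 genes. Those 27025 include genes that were not tested, and a gene with more windows has more chances to hold the core. The count by gene was not matched for either, so nothing is read from it. Of the 12574 promoters of tested genes, 62.2% held the core. Promoters rich in G and C hold the core more often by composition. Among 4719 promoters of tested genes whose G+C content lay between the quartiles of the 49 windows, 67.6% held it. Of the 6 genes that rose, 5 had the core, where 31 of all 34 genes had it, so nothing is read from the 5. The letters GGAATG, the motif bound by TEAD factors, the DNA-binding partners of the Hippo effectors YAP and TAZ, stood in 14.3% of the 49 windows and in 14.7% of all promoters. These GGAATG shares were not matched for G+C content, so nothing is read from them. A match is a description of the letters in the window and shows no binding.

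Glucose enters through carriers and is trapped as glucose 6-phosphate by hexokinase. Slc2a1 encodes GLUT1, the main glucose carrier of most cultured cells, and had 22.8, 29.8 and 22.6 FPKM in cKO 1 to 3, against 21.4, 23.2 and 22.8 FPKM in control 1 to 3. The groups overlapped, with cKO 2 alone high (log2 change 0.14, SE 0.108, limma adjusted p = 0.418). Slc2a3, which encodes GLUT3, was low at 0.651 to 1.23 FPKM in cKO and 0.479 to 0.884 FPKM in control. Hk1, the ubiquitous hexokinase, had 27.0, 27.3 and 22.7 FPKM in cKO 1 to 3, against 26.6, 29.4 and 30.9 FPKM in control 1 to 3. Its groups overlapped (log2 change -0.17, limma adjusted p = 0.259). Hk2, the inducible hexokinase, had 16.0, 14.9 and 14.8 FPKM in cKO 1 to 3, against 13.5, 12.3 and 12.5 FPKM in control 1 to 3. Its groups were apart, but the change missed the threshold (log2 change 0.25, limma adjusted p = 0.0598). Hk2 made up 37.3 ± 2.15% of the FPKM of both hexokinases in cKO and 30.7 ± 2.63% in control (SD, n = 3 each), and the groups did not overlap in that share.

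Phosphofructokinase, the committing step of glycolysis, is assembled from liver, muscle and platelet subunits. None of the 3 passed the test. Pfkp, the platelet subunit and the most abundant, had 16.5, 16.7 and 17.1 FPKM in cKO 1 to 3, against 18.2, 19.3 and 19.4 FPKM in control 1 to 3. Each cKO library was below each control library (log2 change -0.17, limma adjusted p = 0.110, and 0.0435 after quantile normalization). Its neighbour Pitrm1, which overlaps it by 748 bases, had 38.4 to 40.5 FPKM in cKO and 29.0 to 32.6 FPKM in control. Pfkl, the liver subunit, was barely apart the other way at 14.8 to 16.2 FPKM in cKO and 13.1 to 14.8 FPKM in control (log2 change 0.14, limma adjusted p = 0.256). Pfkm, the muscle subunit, overlapped at 10.8 to 11.6 FPKM in cKO and 11.3 to 11.6 FPKM in control. The summed subunits gave 42.7 to 44.2 FPKM in cKO and 42.9 to 45.6 FPKM in control, while the Pfkp share was 38.6 ± 1.07% in cKO and 42.7 ± 0.47% in control (SD, n = 3 each). Pfkfb3 and Pfkfb4, which make the activator fructose 2,6-bisphosphate, both overlapped between groups. Pfkfb3 had 7.09 to 8.96 FPKM in cKO and 6.76 to 7.59 FPKM in control, and Pfkfb4 had 2.04 to 3.72 FPKM in cKO and 1.98 to 2.22 FPKM in control.

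**Figure D2:**
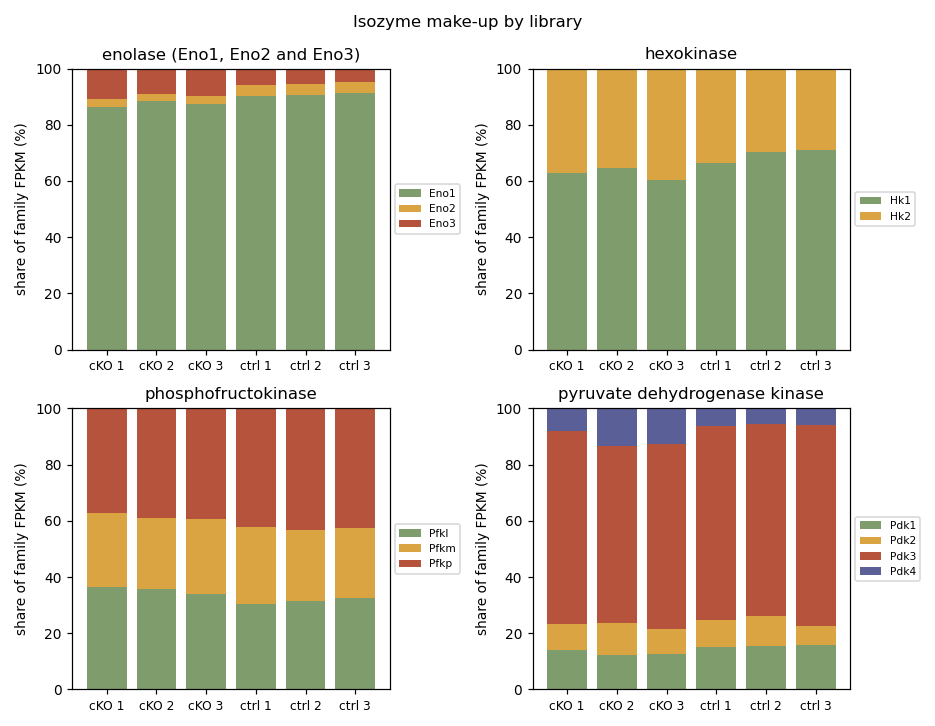
Share of an enzyme family's summed FPKM taken by each of its genes in the set, in percent, as stacked bars with 1 bar per library and cKO left of control. On average Eno3 took 9.85% of the FPKM of Eno1, Eno2 and Eno3 in cKO and 5.35% in control (Eno1b is not plotted), and Pdk4 took 11.3% of pyruvate dehydrogenase kinase FPKM in cKO and 5.78% in control.

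The enzymes from glucose phosphate isomerase to lactate dehydrogenase include the most abundant genes of the set. Aldoa, the main aldolase, which cleaves fructose 1,6-bisphosphate, had 334, 361 and 355 FPKM in cKO 1 to 3, against 277, 288 and 310.5 FPKM in control 1 to 3. Every cKO library was above every control library, and Aldoa rose 1.20-fold (log2 change 0.26, SE 0.069, limma adjusted p = 0.0441). The call was lost without any of the cKO libraries or without control 1 or 2 (limma adjusted p = 0.0667 to 0.162), and under 3 other scalings (0.0511 to 0.106). Aldoa (chr7:126795234-126800751, mm10, minus strand) overlaps Fam57b on the opposite strand, which stayed at or below 0.400 FPKM. Aldoc, the brain aldolase, was low at 0.391 to 0.683 FPKM in cKO and 0.704 to 0.752 FPKM in control, apart but not past the test (log2 change -0.23, limma adjusted p = 0.428).

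Tpi1 (chr6:124810586-124814296, minus strand) encodes triosephosphate isomerase, which turns dihydroxyacetone phosphate into glyceraldehyde 3-phosphate. It had 246, 244 and 253 FPKM in cKO 1 to 3, against 194, 201 and 215 FPKM in control 1 to 3. The groups were apart, and Tpi1 rose 1.22-fold (log2 change 0.29, SE 0.062, limma adjusted p = 0.0240). When cKO 1, control 1 or control 2 was left out, the limma adjusted p was 0.0629 to 0.103. The table divides the gene unevenly among its transcripts. The retained-intron transcript ENSMUST00000154883 took 15.1, 26.2 and 68.5% of Tpi1 in cKO 1 to 3, against 63.8, 63.4 and 67.9% in control 1 to 3. The protein-coding ENSMUST00000172132 took 54.2, 50.3 and 15.7% in cKO 1 to 3, against 21.0, 20.5 and 17.7% in control 1 to 3. In both shares cKO 3 resembled the controls and not the other cKO libraries. The authors' deposited table marks ENSMUST00000172132 (2.47-fold, q = 0.0141) and ENSMUST00000149610 (5.61-fold, q = 0.000212) as higher in cKO. Summed over protein-coding transcripts alone, the log2 change was 1.03 with a limma adjusted p of 0.0835.

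Gapdh, glyceraldehyde 3-phosphate dehydrogenase and one of the most abundant mRNAs of most cells, was listed at only 10.2, 11.2 and 10.5 FPKM in cKO 1 to 3, against 16.0, 10.5 and 9.29 FPKM in control 1 to 3. Most of that came from a single-exon retained-intron transcript at 9.68 to 11.02 FPKM in cKO and 8.17 to 9.09 FPKM in control. The 5 Gapdh transcripts with more than 1 exon summed to 0.480, 0.160 and 0.154 FPKM in cKO 1 to 3, against 7.87, 2.03 and 0.201 FPKM in control 1 to 3. The near-identical pseudogene Gapdh-ps15 (22.0 to 24.6 FPKM in cKO, 17.3 to 18.4 in control) was listed above Gapdh in every library. The near-identical Gapdh-ps16 (12.6 to 14.3 FPKM in cKO, 9.85 to 10.6 in control) was listed above Gapdh in all libraries but control 1 and control 2. The Gapdh values are therefore uncertain, and no direction is read from them.

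Pgk1, phosphoglycerate kinase, makes the first ATP of the pathway and was apart at 240, 241 and 258 FPKM in cKO 1 to 3, against 221, 226 and 232 FPKM in control 1 to 3. Its change was small (log2 change 0.12, limma adjusted p = 0.228). Pgam1, phosphoglycerate mutase, was also apart at 169, 179 and 184 FPKM in cKO 1 to 3, against 150, 150 and 158 FPKM in control 1 to 3 (log2 change 0.21, SE 0.060, limma adjusted p = 0.0551). Its pseudogenes, which may share reads with it, came to 12.6% of its level. Gpi1, glucose phosphate isomerase, overlapped between groups at 77.1 to 84.6 FPKM in cKO and 64.9 to 79.6 FPKM in control.

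The enolases turn 2-phosphoglycerate into phosphoenolpyruvate, and 2 of the 3 in the set rose. Eno1 (chr4:150236721-150248879, plus strand), the general enolase, had 361, 365 and 351 FPKM in cKO 1 to 3, against 292, 287 and 318 FPKM in control 1 to 3. Its groups were apart, and it rose 1.20-fold (log2 change 0.26, SE 0.065, limma adjusted p = 0.0359). That call was lost without cKO 1, cKO 2, control 1 or control 2 (limma adjusted p = 0.0716 to 0.154) and under the 3 other scalings (0.0504 to 0.105). Eno1b, annotated as a retrogene and not in the set, is a near-copy of Eno1 that may share its reads, so how the 2 divide is uncertain. It had 149, 161 and 155 FPKM in cKO 1 to 3, against 134, 139 and 145 FPKM in control 1 to 3, apart but not past the test (log2 change 0.15, limma adjusted p = 0.146). Eno1 and Eno1b together came to 505 to 525 FPKM in cKO and 426 to 464 FPKM in control.

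Eno3 (chr11:70657202-70662513, plus strand) encodes beta-enolase, the form of adult striated muscle. It had 45.2, 37.1 and 39.1 FPKM in cKO 1 to 3, against 18.8, 16.9 and 17.1 FPKM in control 1 to 3. The lowest cKO library was well above the highest control library, and Eno3 rose 2.30-fold (40.5 ± 4.19 FPKM in cKO and 17.6 ± 1.04 FPKM in control, SD, n = 3 each). Its log2 change was 1.18 (SE 0.087, limma adjusted p = 0.000257), and it passed under all 17 alternatives. The authors' deposited table marks 2 of its transcripts as higher in cKO (2.55-fold, q = 8.28e-08, and 2.77-fold, q = 0.000542). In limma's test of single transcripts the more abundant of the gene's isoforms, ENSMUST00000072841, had a log2 change of 1.32 and an adjusted p of 0.0621. Of 9 skeletal muscle markers, 4 were tested, of which 2 rose (50%, against 7.6% of all genes tested) and 2 did not pass. Those that rose were Des and Acta1, at 6.69 to 7.60 and 2.11 to 3.43 FPKM in cKO, against 3.23 to 4.11 and 0.895 to 1.70 FPKM in control. The 5 not tested, which include Myod1, Ckm and Ttn, stayed under 0.1 FPKM in all libraries. The 9 summed to 14.3 to 16.3 FPKM in cKO and 8.71 to 12.4 FPKM in control.

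Eno2, the neuronal enolase, went the other way at 12.3, 9.70 and 11.3 FPKM in cKO 1 to 3, against 13.1, 12.8 and 12.9 FPKM in control 1 to 3. It was apart but missed the threshold (log2 change -0.22, limma adjusted p = 0.149). Of the summed FPKM of Eno1, Eno2 and Eno3, Eno3 took 10.8, 9.02 and 9.75% in cKO 1 to 3, against 5.80, 5.32 and 4.92% in control 1 to 3. With Eno1b counted as well, the Eno3 share was 7.16 ± 0.74% in cKO and 3.76 ± 0.32% in control (SD, n = 3 each), and the groups did not overlap in either share. The Eno1 share was then 63.5 ± 0.35% in cKO and 63.7 ± 0.74% in control.

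**Figure D3:**
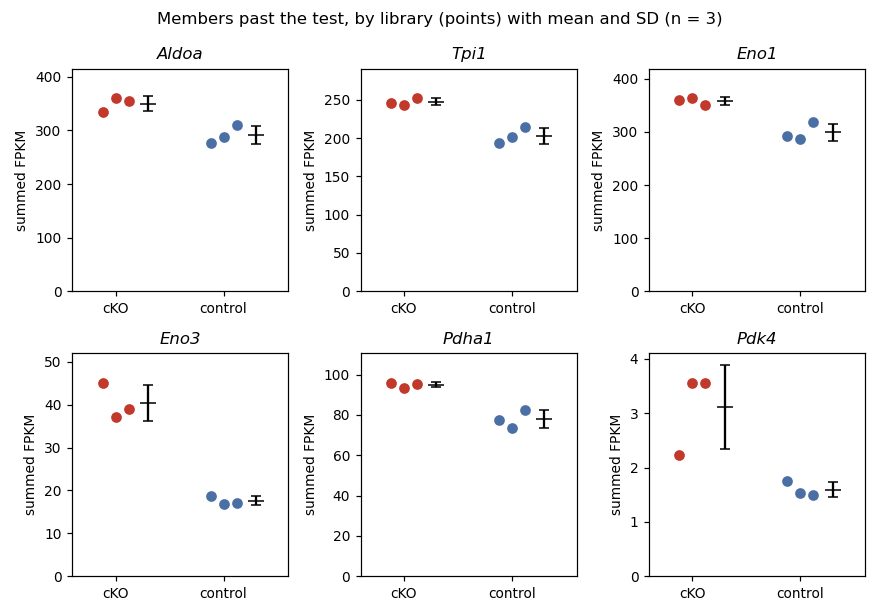
FPKM per library of the 6 genes that passed limma's test, with cKO left of control, points for libraries and the mean with its SD (n = 3) beside them. In all 6 panels every cKO point lies above every control point.

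Pkm, pyruvate kinase, was the most abundant gene of the set and had 735, 842 and 703 FPKM in cKO 1 to 3, against 605, 637 and 673 FPKM in control 1 to 3. The groups were apart, but the change missed the threshold (1.19-fold, log2 change 0.25, SE 0.087, limma adjusted p = 0.102). Pkm makes the M1 and M2 isoforms by using either of a pair of exons. ENSMUST00000034834, with the downstream exon (chr9:59675568-59675734) used in M2, stood at 576 ± 46.5 FPKM in cKO and 461 ± 12.3 FPKM in control (SD, n = 3 each). ENSMUST00000163694, with the upstream exon (chr9:59675029-59675195) used in M1, stood at 165 ± 27.2 FPKM in cKO and 160 ± 27.7 FPKM in control. The M2-type share of the pair was 76.2, 76.9 and 80.4% in cKO 1 to 3, against 76.3, 76.2 and 70.7% in control 1 to 3. The shares overlapped (exact 2-sided permutation test, p = 0.3, where 0.1 is the smallest this design allows). Pkm also overlaps Gm49759 on the same strand, which was at 12.5 to 17.6 FPKM in cKO and 15.2 to 15.6 FPKM in control.

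Ldha, the lactate dehydrogenase subunit that favours lactate formation, had 509, 543 and 535 FPKM in cKO 1 to 3, against 439, 443 and 474 FPKM in control 1 to 3. Its groups were apart, and its change was just outside the threshold (1.17-fold, log2 change 0.23, SE 0.065, limma adjusted p = 0.0580, and 0.0493 with genes of at least 2 FPKM). Ldhb, the heart-type subunit, overlapped at 29.1 to 32.1 FPKM in cKO and 26.7 to 35.2 FPKM in control. The authors' deposited table marks one Ldhb transcript as lower in cKO (0.211-fold, q = 0.0203).

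The 8 enzyme genes of this stretch that averaged 60 FPKM or more, a group picked after the values were seen, moved by similar amounts. They are Gpi1, Aldoa, Tpi1, Pgk1, Pgam1, Eno1, Pkm and Ldha, and all 8 log2 changes were positive at 0.12 to 0.29. In 7 of the 8 every cKO library was above every control library, and 3 passed. Among all genes tested, 22.8% were apart in that direction and 7.6% were called higher, and nothing is read from the counts of a group so picked. The changes were also positive for all 8 under median-of-ratios scaling, equal library sums and quantile normalization, with medians of 0.19, 0.20 and 0.15 and 1 gene past the test under each. Control 3 was the highest control library for 8 of the 8, and control 1 the lowest for 6. All 18 enzymes from hexokinase to lactate dehydrogenase summed to 2863, 3032 and 2887 FPKM in cKO 1 to 3, against 2408, 2458 and 2624 FPKM in control 1 to 3. That sum was 0.712, 0.760 and 0.687% of all FPKM in cKO 1 to 3, against 0.610, 0.621 and 0.655% in control 1 to 3.

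**Figure D4:**
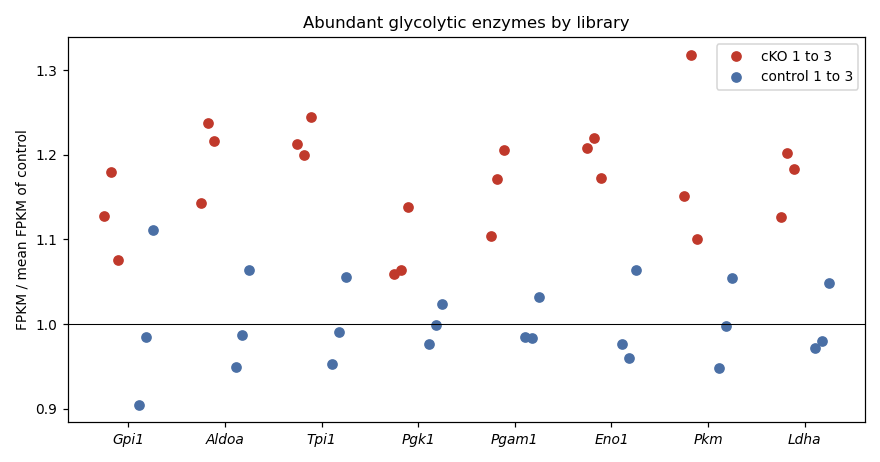
FPKM per library of the 8 glycolytic enzyme genes averaging 60 FPKM or more, each relative to its control mean, with cKO left of control. In 7 of the 8 genes all cKO points lie above all control points, and Gpi1 overlaps.

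Lactate leaves through monocarboxylate carriers. Slc16a1, which encodes MCT1, had 23.4, 21.0 and 23.4 FPKM in cKO 1 to 3, against 23.9, 23.7 and 24.9 FPKM in control 1 to 3. Each cKO library was slightly below each control library (log2 change -0.09, limma adjusted p = 0.399). Slc16a3, which encodes the HIF-inducible exporter MCT4, overlapped at 3.18 to 6.08 FPKM in cKO and 3.16 to 5.48 FPKM in control. One Slc16a3 transcript that the authors' deposited table marks as higher was at 0.76 FPKM in cKO 2 and listed at 0 in the other 5 libraries.

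At the branch point, Pdha1 (chrX:160122209-160138413, minus strand) encodes the catalytic alpha subunit of pyruvate dehydrogenase. It had 96.1, 93.6 and 95.5 FPKM in cKO 1 to 3, against 77.6, 73.4 and 82.4 FPKM in control 1 to 3. The groups were apart, and Pdha1 rose 1.22-fold (log2 change 0.29, SE 0.062, limma adjusted p = 0.0225). When cKO 1, control 1 or control 2 was left out, the limma adjusted p was 0.0647 to 0.0990. Pdha1 is X-linked, and Xist was at 51.4, 41.6 and 0.0288 FPKM in cKO 1 to 3, against 51.1, 0.525 and 53.9 FPKM in control 1 to 3. Pdha1 also passed with the Xist level as a covariate. Pdhb, the beta subunit, was apart at 47.2, 46.7 and 49.9 FPKM in cKO 1 to 3, against 43.9, 45.2 and 42.9 FPKM in control 1 to 3, but did not pass (log2 change 0.12, limma adjusted p = 0.202).

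Pdk4 (chr6:5483351-5496309, minus strand), a kinase that inhibits pyruvate dehydrogenase and is induced by fasting and fatty acids, had 2.23, 3.57 and 3.55 FPKM in cKO 1 to 3, against 1.75, 1.53 and 1.50 FPKM in control 1 to 3. The groups were apart, with cKO 1 nearest the controls, and Pdk4 rose 1.96-fold (log2 change 0.77, SE 0.171, limma adjusted p = 0.0261). The call was lost without cKO 2, cKO 3 or any of the controls (limma adjusted p = 0.0645 to 0.0940). Pdk3 was the most abundant kinase of the family, at 18.9, 17.1 and 18.2 FPKM in cKO 1 to 3, against 19.6, 19.4 and 18.6 FPKM in control 1 to 3. Its groups overlapped (log2 change -0.09, limma adjusted p = 0.432). Pdk1, the HIF-induced kinase, was apart at 3.29 to 3.91 FPKM in cKO and 4.10 to 4.41 FPKM in control (log2 change -0.22, limma adjusted p = 0.168). Pdk2 overlapped at 2.49 to 3.10 FPKM in cKO and 1.74 to 2.97 FPKM in control. The 4 kinases together gave 27.0 to 27.8 FPKM in cKO and 25.9 to 28.4 FPKM in control, while Pdk4 made up 11.3 ± 2.84% of them in cKO and 5.78 ± 0.39% in control (SD, n = 3 each). Of 5 adipocyte markers, 3 were tested, of which 2 rose (66.7%, against 7.6% of all genes tested) and 1 did not pass. Those that rose were Pparg (17.2 to 27.0 FPKM in cKO, 8.76 to 9.92 in control) and Lpl (14.1 to 22.0 in cKO, 7.13 to 8.71 in control). Adipoq and Plin1 stayed at or below 0.108 FPKM. The 5, with the tested marker that did not pass, summed to 52.2 to 87.2 FPKM in cKO and 45.4 to 51.0 FPKM in control.

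The oxygen-sensing genes of the set did not rise. Hif1a had 86.2, 91.3 and 87.6 FPKM in cKO 1 to 3, against 100, 109 and 92.0 FPKM in control 1 to 3. Each cKO library was below each control library (log2 change -0.18, SE 0.074, limma adjusted p = 0.147). HIF-1 is controlled mainly through the stability of its protein, which was not measured. Within Hif1a, ENSMUST00000021530 held 49.5, 46.2 and 94.6% of the level in cKO 1 to 3, against 59.4, 51.7 and 50.3% in control 1 to 3, so cKO 3 stood apart from the other 5 libraries. Egln1, the main prolyl hydroxylase, had 9.29, 9.13 and 9.54 FPKM in cKO 1 to 3, against 7.54, 9.50 and 8.38 FPKM in control 1 to 3. Its groups overlapped (log2 change 0.14, limma adjusted p = 0.378). Egln3, the hydroxylase that HIF itself induces, was under the filter at 0.221 to 0.439 FPKM in cKO and 0.140 to 0.541 FPKM in control.

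Vegfa, which encodes the main angiogenic factor and is a classic HIF target, had 16.5, 13.4 and 17.1 FPKM in cKO 1 to 3, against 16.5, 15.7 and 16.2 FPKM in control 1 to 3. The groups overlapped (log2 change -0.05, limma adjusted p = 0.794). Bnip3, a mitophagy receptor and HIF target whose promoter above holds several cores, had 10.97, 9.78 and 12.2 FPKM in cKO 1 to 3, against 13.0, 15.4 and 14.3 FPKM in control 1 to 3. All cKO libraries lay below all control libraries (10.99 ± 1.22 FPKM in cKO and 14.2 ± 1.20 FPKM in control, SD, n = 3 each). The change just missed the threshold (log2 change -0.36, SE 0.10, limma adjusted p = 0.0530) and passed it in 6 of 17 alternatives, with 0.0311 as the lowest limma adjusted p.

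Genes of the same pathways outside the 35 were counted list by list. Among all genes tested, 7.6% were called higher and 4.57% lower, 12.2% in all. Of the 32 tested HIF-induced genes reported here, 4 rose, 4 fell and 24 did not pass, with a median log2 change of -0.03. That is 25% past the test in both directions together, and at an unadjusted p under 0.05 limma counted 7 higher and 6 lower. Angptl4, a secreted inhibitor of lipoprotein lipase, had 10.4, 12.6 and 12.9 FPKM in cKO 1 to 3, against 5.57, 5.63 and 5.90 FPKM in control 1 to 3 (log2 change 1.00, SE 0.096, limma adjusted p = 0.000859). It missed the threshold when protein-coding transcripts alone were summed (0.0681). Pgf, placental growth factor, rose as well at 1.20, 1.65 and 1.596 FPKM in cKO 1 to 3, against 0.653, 0.477 and 0.458 FPKM in control 1 to 3 (log2 change 0.94, limma adjusted p = 0.0113, and 0.0536 without the filter). Plod2, a collagen lysyl hydroxylase, fell, with 45.7, 45.2 and 51.9 FPKM in cKO 1 to 3, against 93.0, 92.9 and 81.1 FPKM in control 1 to 3 (log2 change -0.90, SE 0.082, limma adjusted p = 0.000665). In these 3 genes the groups did not overlap. Lox and Insig2 also rose and Bhlhe40, Plod1 and Tfrc also fell, 5 genes named after their values were seen.

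**Figure D5:**
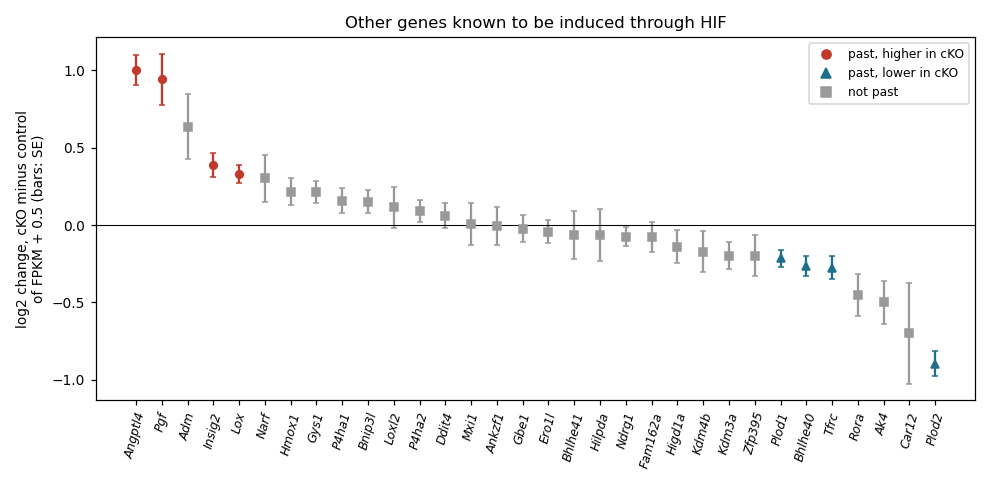
Log2 change, cKO minus control, of 32 tested HIF-induced genes outside the set on the log2(FPKM + 0.5) scale, with bars for the standard error of limma's fit. Circles mark the 4 genes that rose, triangles the 4 that fell with Plod2 the lowest of them, and squares the 24 that did not pass.

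The HIF machinery outside the set had 1 of 13 tested genes higher and 1 lower (3 and 1 at an unadjusted p under 0.05). Epas1, which encodes HIF-2 alpha, had 2.98, 2.55 and 2.81 FPKM in cKO 1 to 3, against 6.59, 6.04 and 5.61 FPKM in control 1 to 3. The groups were far apart, and Epas1 fell (log2 change -1.004, SE 0.101, limma adjusted p = 0.00113) under all 17 alternatives too. Cited2, which competes with HIF-1 alpha for its coactivator, had 53.5, 81.1 and 76.3 FPKM in cKO 1 to 3, against 46.6, 45.5 and 44.8 FPKM in control 1 to 3. It rose (log2 change 0.60, limma adjusted p = 0.0305), and the call was lost without cKO 2, cKO 3 or any control library (0.0614 to 0.103).

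Of 17 tested tricarboxylic acid cycle genes, 3 rose and none fell, with a median log2 change of 0.19. At an unadjusted p under 0.05 limma counted 9 higher and 0 lower, against 19.5% and 10.1% of all genes tested. Citrate synthase (Cs) had 95.0, 99.2 and 103 FPKM in cKO 1 to 3, against 81.3, 78.2 and 87.5 FPKM in control 1 to 3 (log2 change 0.26, limma adjusted p = 0.0357). Dlst, a subunit of the 2-oxoglutarate dehydrogenase complex, gave a log2 change of 0.30 (limma adjusted p = 0.0322), and Idh3g, a subunit of isocitrate dehydrogenase, one of 0.24 (0.0439). Leaving out single libraries ended all 3 calls, without cKO 1 or 3 or control 1 or 2 for each, without cKO 2 for Cs, and without control 3 for Idh3g (limma adjusted p = 0.0581 to 0.148). With protein-coding transcripts alone, the log2 change was 0.07 for Dlst (0.863) and 1.14 for Idh3g (0.172).

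Among 12 tested genes of pyruvate entry and lactate transport, Emb alone passed (1 higher and 2 lower at an unadjusted p under 0.05). It encodes embigin, a membrane partner of monocarboxylate carriers, and had 141, 125 and 149 FPKM in cKO 1 to 3, against 215, 226 and 201 FPKM in control 1 to 3. The groups were apart, and Emb fell (log2 change -0.63, SE 0.080, limma adjusted p = 0.00309) under all 17 alternatives too. Ppp1r3c, which targets a phosphatase to glycogen, fell as well (1.41, 0.857 and 1.10 FPKM in cKO 1 to 3, against 2.97, 3.90 and 2.42 FPKM in control 1 to 3; log2 change -1.14, limma adjusted p = 0.00921, and 0.0574 without the filter). Gyg, glycogenin, rose (log2 change 0.26, limma adjusted p = 0.0418), and the other 16 of 18 tested glycogen genes did not pass. Of the 18, 3 were higher and 4 lower at an unadjusted p under 0.05. Gyg lost its call without any single library (0.0543 to 0.144).

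The 12 tested genes of other sugar entry and side reactions held 1 higher gene, Ldhd, a mitochondrial D-lactate dehydrogenase (log2 change 0.81, limma adjusted p = 0.0262). The 10 of the pentose phosphate pathway held 1, H6pd, its endoplasmic reticulum form (log2 change 0.22, limma adjusted p = 0.0403). In each of these 2 lists limma counted 4 higher and 0 lower at an unadjusted p under 0.05. Ldhd lost its call without any library but control 3 (0.0532 to 0.0859), and H6pd without any but cKO 3 (0.0841 to 0.133). None of 4 tested gluconeogenesis genes passed limma (0 higher and 1 lower at an unadjusted p under 0.05), and the most abundant, Pck2, had 26.5 to 30.2 FPKM in cKO and 30.5 to 33.8 FPKM in control (log2 change -0.21, limma adjusted p = 0.105). For 17 regulators of glycolytic genes, limma counted 6 higher and 1 lower at an unadjusted p under 0.05. Of them, Akt1 rose (log2 change 0.23, limma adjusted p = 0.0470) and Ppargc1a, a driver of mitochondrial gene transcription, fell (log2 change -0.66, limma adjusted p = 0.0266). Without any single library for Akt1, and without cKO 2, cKO 3 or any control for Ppargc1a, these calls were lost (0.0530 to 0.177). Under median-of-ratios scaling Cs, Dlst, Idh3g, Gyg, H6pd and Akt1 missed the threshold (limma adjusted p = 0.0514 to 0.0936).

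Of the 77 tested nuclear-encoded subunits of oxidative phosphorylation reported here, none passed limma's test, with a median log2 change of 0.03. At an unadjusted p under 0.05 limma counted 8 higher and 6 lower of the 77, against 19.5% and 10.1% of all genes tested. The most abundant, Atp5b, the catalytic beta subunit of ATP synthase, had 495, 505 and 517 FPKM in cKO 1 to 3, against 412, 418 and 458 FPKM in control 1 to 3. Its groups were apart (log2 change 0.24, limma adjusted p = 0.0560, and 0.0479 with genes of at least 2 FPKM). The 13 mitochondrially encoded subunits had a median log2 change of -0.22. Of the 13, 2 fell (15.4%, against 4.57% of all genes tested) and 11 did not pass. At an unadjusted p under 0.05 limma counted 0 higher and 6 lower of the 13. In this list, mt-Co2 had 2847, 2864 and 3165 FPKM in cKO 1 to 3, against 3944, 4021 and 3727 FPKM in control 1 to 3. It fell (log2 change -0.40, limma adjusted p = 0.0267, and -0.16 with 0.129 after quantile normalization), as did mt-Nd6 (log2 change -0.31, limma adjusted p = 0.043), and both calls were lost without cKO 1, cKO 2 or any control (0.0520 to 0.185).

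Below the gene level, the 35 genes had 218 transcripts in the table, of which 83 were tested. None passed limma's test, against 0.187% of all 27761 tested transcripts that were called higher and 0.421% called lower (0.609% in all), and at an unadjusted p under 0.05 limma counted 14 higher and 2 lower (8.99% and 5.56% of all transcripts tested). The authors' deposited table marks 6 of the 218 as significant (2.75%), 5 higher and 1 lower in cKO, against 2.19% of all transcripts. They belong to Eno3, Tpi1, Ldhb and Slc16a3.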

How the data were processed

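RNA from 3 cKO and 3 control libraries was measured by sequencing. Libraries were made from 1.5 µg of Trizol-extracted total RNA with dUTP, per the labels' protocols. The submitters' processing notes name mm10. Not given in the sources used here are the aligner, the quantifier, the use of strand in counting and the authors' test. The deposited table gives FPKM, per the file headers, for each of 85882 transcripts and each library, with the authors' fold (a ratio of group means) and its log2, p-value and q-value. These were used as deposited.

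FPKM were summed per gene symbol. Genes averaging 0.5 FPKM or more were tested on log2(FPKM + 0.5) with limma 3.58.1 in R 4.3.3, using its mean-variance trend and 2-sided p-values with Benjamini-Hochberg adjustment over all 14080 genes at 0.05. Transcripts were tested likewise. The adjusted p-values given here are from these fits unless the authors' table is named. The code was tested on simulated data. Depth is unknown: 17.2 to 20.7% of low values lay within 2% of whole multiples of a step, so no count test was run. Of the transcripts, 85239 are in GENCODE M21, and 85004 have the same coordinates there, which are 1-based.

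The 35 genes and the lists were chosen with earlier results of these data known. Of the genes in the lists, 2 are not reported here and are out of the counts, medians and plots of their lists. The genes named in full were those past the test and the most abundant of each step, and from each list up to 3 past the test with the smallest p, or else the most abundant. Alternatives were 2 pseudocounts, no filter, a filter at 2 FPKM, 3 other scalings, no trend, each library left out, a replicate block, an Xist covariate and protein-coding transcripts alone. Tables were handled with Python 3.11.15 and pandas 2.3.3.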

Additional observations from a re-analysis of the deposited data

How the results depend on the processing

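Across all genes tested, limma called 1713 (62.5% of them higher in cKO), against 662 without the filter, 1134 without the mean-variance trend and 541 to 1332 with single libraries left out. The higher share was 48.4% under median-of-ratios scaling, 47.5% under quantile normalization and 52.6% with equal library sums. The 6 genes of the set called higher became 1 without the filter, 2 without the trend and 1 to 5 with single libraries left out. Called lower were 0, but 1 with the Xist covariate, with equal library sums, with genes of at least 2 FPKM and under median-of-ratios scaling, 2 under quantile normalization, and 0 to 1 with single libraries left out. Single transcripts past the test were 0, and 0 to 1 with single libraries left out. With replicate number as a block, 1097 genes passed, among them 3 of the set (Tpi1, Eno3 and Pdha1). No pairing of libraries by number was seen, as same-numbered libraries had correlations of deviations of -0.0157, -0.0559 and -0.0463. The other pairs ran from -0.0462 to 0.0947, and with 3 libraries a group this check cannot exclude a pairing. With single libraries left out, log2 changes with a turned sign ran from -0.036 to 0.014 for Pfkm (positive without cKO 2), -0.28 to 0.10 for Gapdh (positive without control 1) and -0.16 to 0.037 for Ldhb (positive without control 3). They ran from -0.11 to 0.32 for Slc16a3 (negative without cKO 1, and -0.035 without control 3), -0.066 to 0.25 for Pdk2 (negative without control 3) and -0.11 to 0.059 for Vegfa (positive without cKO 2). With protein-coding transcripts alone the sign turned for Eno2 (0.37). Of the log2 changes of the tested genes of the set under alternatives, 520 kept their sign and side of the threshold, 40 lost the call, 8 gained it and 8 turned. The cause of these differences was not tested, apart from the smaller groups when a library is left out. Without known depth, no counting error can be given for low genes such as Pdk4 or Egln3.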
